A study of Triticum aestivum with 20 samples.

Results

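The comparison of cold and control anthers at an anther length of 2.2 mm covers 4 of the 20 arrays of the series, selected by the 2.2 stage in their titles. Anthers came from BS366, a temperature-sensitive genic male sterile line of wheat that is male sterile in the cold and male fertile in the control. Total RNA was hybridized to Affymetrix Wheat Genome arrays, with 1 array for each of 4 conditions at 5 anther lengths (1.5, 2.0, 2.2, 2.5 and 3.0 mm). Per the labels, all plants were vernalized in the field, treated for 5 d and then moved to 20 °C with 12 h of light. Cold arrays came from plants treated at 10 °C with 12 h of light (A) or 14 h of light (B), and control arrays from plants treated at 20 °C with 12 h of light (E) or 14 h of light (F). Elsewhere the study's text gives 12 °C for the cold. A was compared with E and B with F, so each temperature had 2 arrays that also differed in day length. Nothing in the labels says how many plants or anthers were in a sample. The p-values therefore measure only the spread between arrays, estimated over all 20 arrays of the series.

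An anther holds the pollen-forming cells inside a wall whose innermost layer, the tapetum, feeds the developing pollen and supplies material for its coat. Before pollen matures, it fills with starch and other reserves made from imported sugar, while green cells of the anther wall can carry out photosynthesis. In temperature-sensitive male sterile lines, the temperature during a limited period of anther development decides whether fertile pollen forms. Anther length stands for developmental stage in these samples. A transcript difference at one length and a difference in developmental progress at that length cannot be told apart. In whole anthers, fewer cells of a type and less RNA per cell cannot be told apart either.

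At 2.2 mm, 1657 of 13805 tested probe sets (12.0%) differed between cold and control, at an adjusted p under 0.05 in limma and a difference of at least 2-fold. Of these, 1031 were lower in the cold (7.47% of those tested) and 626 were higher (4.53%). The count was 884 without E, 992 without A and 977 without B. Named genes among the decreases included the tapetal raftins, enzymes and proteins of the chloroplast, a beta-amylase and a fructan hydrolase. Named genes among the increases were an H2A histone, a beta-tubulin, the chromatin protein Hmgb3 and the auxin regulator IAA15. The same comparison called 39 probe sets at 1.5 mm (0.283%) and 0 at 2.0 mm, where 581 had an unadjusted p under 0.05. Thus 2.2 mm was the shortest length with a large number of calls. The 2.0 mm controls differed from each other, however. F of 2.0 mm correlated with E and F of 2.2 mm at 0.91 and 0.91, and E of 2.0 mm at 0.85 and 0.83. The 0 calls therefore do not show that cold and control were alike at 2.0 mm. A level is given here as the log2 value of a probe set, a group of short probes for a transcript. A difference is the cold level minus the control level, and its standard error (SE) comes from the fit to all 20 arrays.

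The 4 arrays of 2.2 mm had medians of 6.37 to 6.46, and 379 to 445 of 28894 probe sets sat at the lowest value of the scale, 2.28. Over the tested probe sets, A and B correlated at 0.97 and E and F at 0.94, while the cold and control arrays correlated at 0.80 to 0.83. Control probe sets for RNA integrity were not analysed here. Of the cell type markers looked for, the tapetal raftins were bright on all 4 arrays, at 9.02 to 13.76, as were some probe sets of green tissue genes. The markers listed for late pollen differed from each other. LTP3 lay near the lower end, at 2.51 on both cold arrays, 3.73 on E and 5.28 on F. The beta-amylase gene amy1 was bright, at 9.32 on A, 10.41 on B, 11.95 on E and 12.51 on F. No probe set carried a name of the stamen identity genes (PI, AP3 and WPI) or of the gliadin, glutenin and puroindoline genes looked for. Ta.27777.1.S1_at, named for an avenin-like protein and not on that marker list, was at 11.39 to 11.66.

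Each temperature pair showed the difference on its own. In the 12 h pair (A vs. E), 1527 probe sets were at least 2-fold higher and 1644 at least 2-fold lower in the cold. In the 14 h pair (B vs. F), 881 were higher and 1252 lower. The pairs shared 413 higher and 874 lower probe sets, and 24 moved at least 2-fold in opposite directions. Between day lengths, 415 probe sets differed 2-fold on the cold arrays (A vs. B) and 1078 on the control arrays (E vs. F), fewer than in either temperature pair. The cold and control arrays did not overlap in any of the 1657 called probe sets, as the call largely fixes, nor in 62.0% of all those tested. The difference was larger in the 12 h pair for 69.7% of the called increases and 60.1% of the called decreases, beside 59% of all probe sets tested. With 1 array for each temperature and day length at this stage, that inequality has no replicate check.

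**Figure D1:**
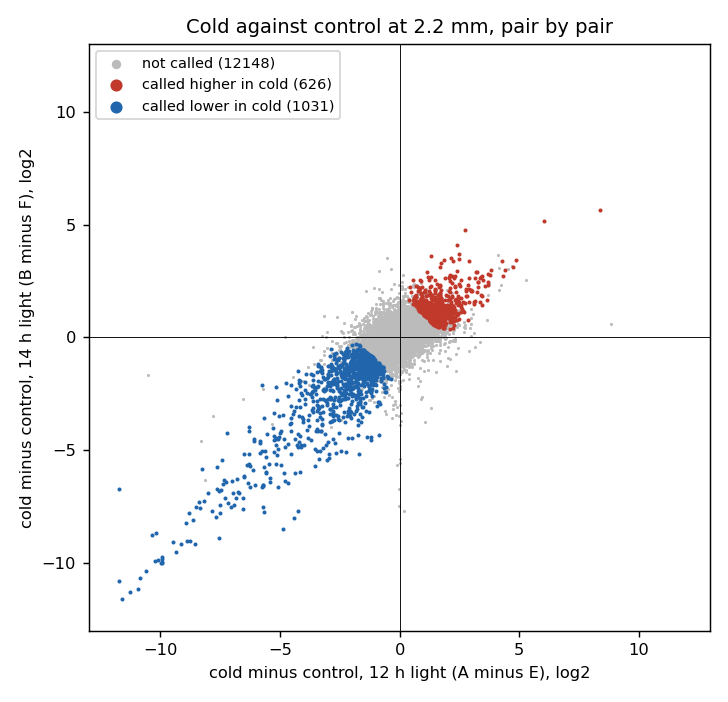
Each point is a probe set, with the cold minus control difference (log2) in the 12 h pair on the x axis and in the 14 h pair on the y axis. The 626 probe sets called higher (red) and the 1031 called lower (blue) lie in the corners where both pairs moved the same way, and the blue points reach further from 0 than the red ones.

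Decreases were larger than increases. The median called decrease was 1.76 on the log2 scale, with a median difference of -1.91 in the 12 h pair and -1.67 in the 14 h pair. The median called increase was 1.32, with 1.52 and 1.20 in the pairs. Differences of 1 to 2 on the log2 scale were similar in number, with 537 increases and 581 decreases. Above 4, there were 77 decreases and 2 increases between 4 and 6, and 71 decreases and 1 increase of 6 or more, that is at least 64-fold. For 536 of the 1031 decreases, neither cold array exceeded its 60th percentile, the level of the filter. For 253 of the 626 increases, neither control array did. Such probe sets passed the filter only through another group. The 1657 probe sets fell into 1352 groups by the shared first part of their name, so some represent the same transcript cluster.

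**Figure D2:**
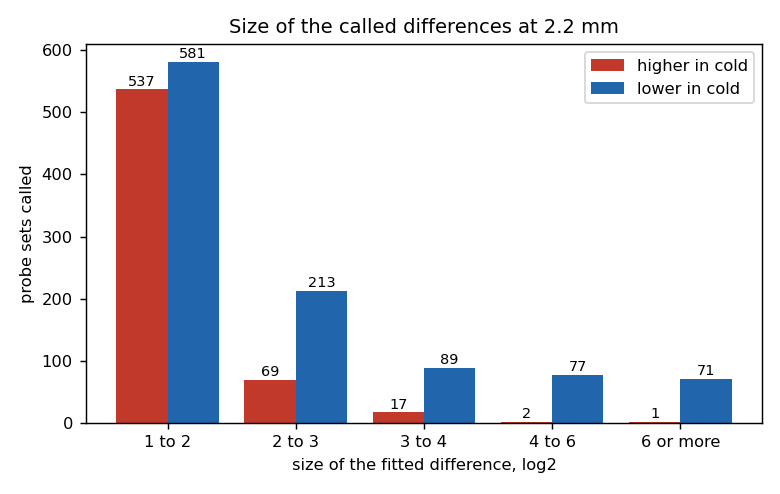
Bars count the probe sets called at 2.2 mm by the size of the fitted difference (log2), higher in the cold in red and lower in blue. The counts are close at 1 to 2 (537 and 581) and far apart at 6 or more (1 and 71).

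The 71 decreases of at least 64-fold were transcripts close to the lower end of the scale in the cold and bright in the control. On the control arrays at 2.2 mm, their median was 11.21 on E and 10.82 on F, with no value under 6.97. On the cold arrays, the median was 2.56 on A and 2.81 on B, with no value above 7.47. For 43 of the 71, both cold arrays lay within 1 log2 unit of the lowest value, so the size of these differences is limited by the scale. None of the 71 carried a gene symbol, and they fell into 62 name groups. The bound of 6 was set after the values had been seen, so the set is a description. A decrease of that size requires a cold level far below a bright control level, so these 2.2 mm levels largely follow from the bound.

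Among them were the 5 probe sets with the largest decreases of all. TaAffx.59835.1.S1_x_at stood at 2.33 on A, 2.32 on B, 13.95 on E and 13.92 on F, a difference of -11.61 (SE 1.90, adjusted p = 0.00182). Ta.24618.2.S1_s_at stood at 2.77 on A, 2.65 on B, 14.04 on E and 13.95 on F (-11.29, adjusted p = 0.00439). Ta.3542.1.S1_at stood at 2.35 on A, 2.37 on B, 13.29 on E and 13.52 on F (-11.05, adjusted p = 0.000142). In each of the 3, both control arrays were at the bright end of the scale and both cold arrays within 0.5 of its lowest value. Ta.3013.1.A1_at (-11.27) and Ta.16014.1.S1_at (-10.75) completed the group. In 4 of the 5, all but Ta.3013.1.A1_at, at least 3 of the 20 arrays held an identical value, which can understate the spread. For TaAffx.59835.1.S1_x_at, the SE of 1.90 also took in wide gaps at other lengths, such as 2.33 on E and 11.66 on F at 2.0 mm.

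The 71 transcripts were then followed on the arrays of the other lengths. At 2.0 mm their median was 2.91 on A, 2.75 on B and 3.26 on E, but 8.14 on F, and F exceeded E by 1 or more for 61 of the 71. At 2.5 mm the medians were 2.75 on A and 4.96 on B, against 11.06 on E and 10.62 on F. At 3.0 mm the order had changed, with 8.68 on A and 9.16 on B against 4.06 on E and 4.28 on F. Thus the 14 h control was already bright at 2.0 mm, and the cold arrays became bright at 3.0 mm, where many of the transcripts were dim in the control. At 3.0 mm, 38 of the 71 were called higher in the cold, beside 13.9% of all tested, and 10 lower, beside 13.3%. At 2.5 mm, 58 of the 71 were called lower, beside 10.6% of all tested. At 1.5 or 2.0 mm, 0 of the 71 were called, beside 0.283% and 0% of all tested. At 3.0 mm, 28 of the 71 lay within 1 log2 unit of the lowest value on both control arrays and 13 were at 10 or more on both. TaAffx.59835.1.S1_x_at, for example, stood at 11.66 on F at 2.0 mm, at 12.46 on A and 12.62 on B at 3.0 mm, and at 2.33 on both control arrays at 3.0 mm. Ta.3542.1.S1_at differed in that it stayed bright in the control at 3.0 mm, at 12.26 on E and 12.77 on F, beside 10.25 on A and 11.32 on B.

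**Figure D3:**
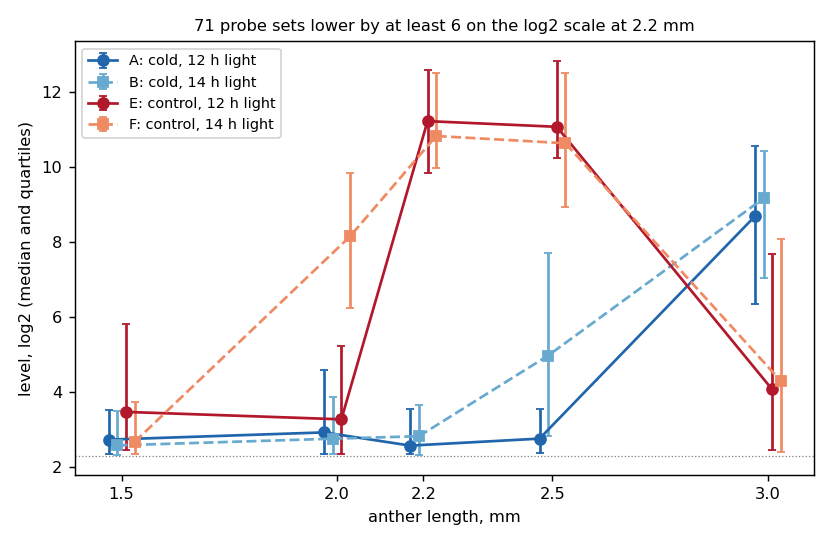
Points are the median levels (log2) of the 71 probe sets lower by at least 6 at 2.2 mm, and bars their quartiles, against anther length (mm), for conditions A and B (cold, blue) and E and F (control, red). The dotted line is the lowest value of the scale. The control medians are at 10.62 to 11.21 at 2.2 and 2.5 mm and the cold medians at 8.68 and 9.16 at 3.0 mm.

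Some of the largest increases had a control level near the lowest value. Ta.19005.1.S1_at stood at 8.31 on A, 7.46 on B, 2.28 on E and 2.301 on F, a difference of 5.59 (SE 0.997, adjusted p = 0.00286). It was at 9.02 to 9.73 in all 4 conditions at 1.5 mm, and at 3.37 or lower on all arrays but A at 2.5 mm. Ta.14156.1.S1_at (4.13), Ta.21427.1.S1_at (3.93) and Ta.4046.1.S1_a_at (3.83) also had controls at 2.52 or lower. The largest fitted increase, TaAffx.143997.1.S1_s_at, stood at 14.26 on A and 15.36 on B, but at 5.87 on E and 9.73 on F (7.01, SE 2.19, adjusted p = 0.0393). On the other E arrays it was at 13.91 to 15.505, so the low E level was confined to the 2.2 mm array. The F arrays were at 8.02 to 9.77 over all lengths. The call was lost without E of 2.2 mm, as it was without either cold array. The calls of Ta.14156.1.S1_at and Ta.4046.1.S1_a_at were lost without any single 2.2 mm array.

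The raftins, the tapetal markers examined, were lower in the cold. Raftins are anther proteins that the wheat tapetum makes and that are transported to the pollen surface. All 4 of their probe sets were lower in the cold, with a median difference of -1.80 beside 0.11 over all tested probe sets. For raftin1b, Ta.4091.1.S1_x_at stood at 9.02 on A, 10.78 on B, 12.42 on E and 11.97 on F, a difference of -2.30 (SE 0.70, adjusted p = 0.035). The control arrays were above both cold arrays, and A was well below B. Ta.4091.1.S1_s_at of raftin1b fell by 1.75 (adjusted p = 0.0419), and Ta.4195.1.S1_at and Ta.4176.1.S1_x_at of raftin1a fell by 1.85 and 1.41 (adjusted p = 0.0454 and 0.031). At 2.5 mm the 4 differences were -1.20 to -1.93, and the 1 with an adjusted p under 0.05 was Ta.4176.1.S1_x_at (-1.29, adjusted p = 0.0354). These 4 calls were among the less stable ones and were lost in 6 to 9 of 16 alternative settings, leaving out A or E among them.

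Of 16 probe sets of photosynthesis genes, 9 were tested, and 5 of them were called lower in the cold and 0 higher, beside 7.47% and 4.53% of all tested probe sets. All 9 differences were negative, with a median of -1.40 beside 0.11 over all tested. The gene for phosphoribulokinase, PRK (Ta.23158.1.S1_at), which regenerates the CO2 acceptor of the Calvin cycle, stood at 8.25 on A, 8.79 on B, 11.05 on E and 11.17 on F. Its control arrays were close together and both cold arrays far below them, with a difference of -2.59 (SE 0.41, adjusted p = 0.00146) that stayed called in 16 of 16 alternative settings. FBP, a fructose bisphosphatase of the same cycle, stood at 5.68 on A, 6.30 on B, 8.11 on E and 8.05 on F (-2.09, SE 0.45, adjusted p = 0.00773), and lost its call without A (-1.89) or without E (-1.92). OEE2/PsbP, a protein of the oxygen-evolving complex of photosystem II, was lower on both of its probe sets, by -1.40 on Ta.85.1.S1_at (adjusted p = 0.0103) and -1.66 on TaAffx.120874.1.S1_x_at (adjusted p = 0.0462). The first of these calls was lost without A (-0.98) or without E (-1.12), and the second in 11 of 16 alternative settings. OEE1/PsbO of the same complex had a difference of -0.92 (adjusted p = 0.0576). The petC gene of the cytochrome b6f complex, which the list did not hold, had -0.72 (adjusted p = 0.0936).

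The 4 tested probe sets of rbcL, the gene of the large subunit of Rubisco, differed widely. TaAffx.128896.17.S1_s_at stood at 6.66 on A, 7.54 on B, 9.37 on E and 9.50 on F, and the difference of -2.33 (SE 0.31, adjusted p = 0.000476) was called. The brightest probe sets, TaAffx.128414.1.A1_x_at and Ta.24976.1.S1_x_at, were at 13.86 or more on every 2.2 mm array and differed by -0.50 and -0.49 (adjusted p = 0.0296 and 0.0269), less than 2-fold. TaAffx.128414.181.S1_at had -0.99 (adjusted p = 0.105).

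Trx-M and Pgk-1 were lower as well. Trx-M, a thioredoxin of the chloroplast type, stood at 8.24 on A, 9.05 on B, 9.88 on E and 10.24 on F (-1.42, SE 0.25, adjusted p = 0.00267). Pgk-1, a phosphoglycerate kinase, stood at 9.22 on A, 10.33 on B, 12.09 on E and 11.64 on F (-2.09, SE 0.36, adjusted p = 0.00255). In both genes the cold and control levels were separate, and A was the lowest array.

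Of the 2 tested genes listed for starch and sugar use, 1 was called lower, beside 7.47% of all tested probe sets. The beta-amylase gene amy1/BMY1 (Ta.3.1.S1_at), whose enzyme releases maltose from starch, stood at 9.32 on A, 10.41 on B, 11.95 on E and 12.51 on F. The difference of -2.37 (SE 0.67, adjusted p = 0.0258) had separate groups, but the call was lost without any single 2.2 mm array (-2.83 to -1.91). Outside the list, the gene 1-FEH, for a fructan exohydrolase that releases fructose from fructan, fell by 1.37 (SE 0.26, adjusted p = 0.00377), from 11.06 and 10.66 in the control to 9.53 and 9.46 in the cold, and lost its call without E (-1.10). The other listed gene, AGP-S, the small subunit of ADP-glucose pyrophosphorylase in starch synthesis, had a difference of -0.40 (adjusted p = 0.146), with 10.70 on A, 11.02 on B, 11.38 on E and 11.15 on F. AGA.1, which the list did not hold, had -0.85 (adjusted p = 0.114).

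**Figure D4:**
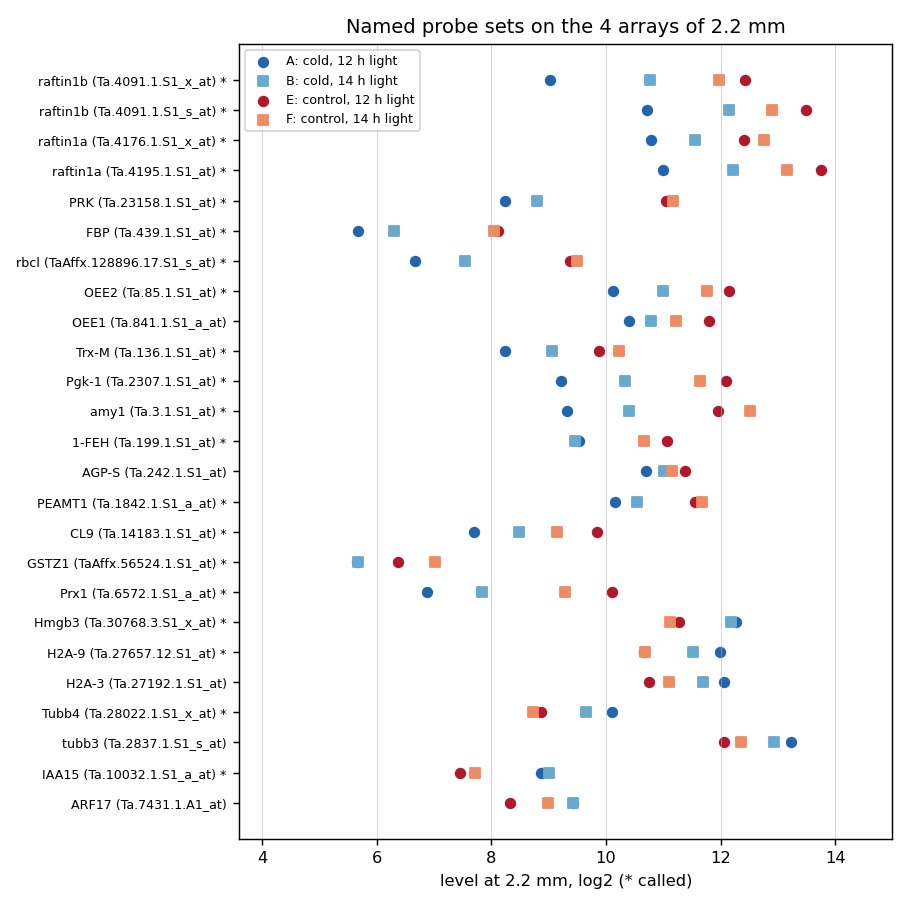
Levels (log2) of 25 named probe sets on the 4 arrays of 2.2 mm, blue for cold and red for control, circles for 12 h and squares for 14 h of light. Asterisks mark the called probe sets. The raftin, photosynthesis and sugar genes lie further left in the cold, and Hmgb3, the histones, the tubulins, IAA15 and ARF17 further right.

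Histone and tubulin probe sets had small positive differences, few of which were called. Histones package DNA and tubulins build microtubules, including those of the spindle and the cell plate. All 17 tested probe sets of H2A and H2B histones had a positive difference, from 0.40 to 1.08, with a median of 0.74. Over all tested probe sets, 57.9% had a positive difference and the median was 0.11. Of the histone probe sets, 5 had an adjusted p under 0.05, beside 10.6% of all tested that were higher and 10.4% that were lower at that level. With the 2-fold limit, 1 of 17 was called, close to the 4.53% of all tested. The called one was Ta.27657.12.S1_at of H2A-9, at 12.00 on A, 11.51 on B, 10.67 on E and 10.69 on F (1.08, SE 0.34, adjusted p = 0.0432), and it lost its call in 8 of 16 alternative settings. Ta.27192.1.S1_at of H2A-3 had a difference of 0.95 with a smaller error (SE 0.21, adjusted p = 0.00944). Probe sets of the histones share sequence between gene copies and cannot be assigned to a single copy.

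All 9 tested tubulin probe sets also had a positive difference, from 0.09 to 1.08, with a median of 0.69. Of these, 5 had an adjusted p under 0.05, beside the same 10.6% of all tested. With the 2-fold limit, 1 of 9 was called, beside 4.53% of all tested called higher. The called one, of beta-tubulin Tubb4 (Ta.28022.1.S1_x_at), stood at 10.10 on A, 9.65 on B, 8.87 on E and 8.73 on F (1.08, SE 0.27, adjusted p = 0.0163), and lost its call in 6 of 16 alternative settings. The alpha-tubulin probe set had the lowest value, 0.09. Hmgb3, a high mobility group protein that binds and bends DNA, had the smallest error among the 4 called increases with a name. Its probe set Ta.30768.3.S1_x_at stood at 12.26 on A, 12.19 on B, 11.27 on E and 11.12 on F (1.03, SE 0.18, adjusted p = 0.00259). Both arrays of a temperature lay close together, and the groups were separate. Its other tested probe set, Ta.30768.1.S1_x_at, had 0.52 (adjusted p = 0.138). The call of Ta.30768.3.S1_x_at was lost without B (0.92) or without E (0.96).

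Over the 17 histone probe sets, the median difference was 0.01 at 2.0 mm, 1.10 at 2.5 mm and 2.45 at 3.0 mm, with 12 and 17 called higher at the later lengths, beside 5.84% and 13.9% of all tested. Over the 9 tubulin probe sets it was 0.10, 0.22 and -0.27, with 0 called at 2.5 mm and 1 called lower at 3.0 mm, beside 13.3% of all tested. For Ta.27657.12.S1_at of H2A-9, the difference was 0.01 at 2.0 mm, 2.06 at 2.5 mm and 3.32 at 3.0 mm. For Tubb4 it was 0.01, 0.15 and -1.01. Hmgb3 kept a difference of 1.38 and 1.32 at 2.5 and 3.0 mm, both called. PRK kept -2.90 and -2.16, both called, and amy1/BMY1 -3.52 and -3.66, both called.

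Translation genes formed another of the listed groups. Of 8 probe sets, 6 were tested, with a median difference of 0.14. Of these 6, 1 was called lower and 0 higher, beside 7.47% and 4.53% of all tested. The called one was CL9/RPL9, a ribosomal protein gene, at 7.71 on A, 8.47 on B, 9.84 on E and 9.15 on F (-1.41, SE 0.35, adjusted p = 0.0153). The call was lost in 4 of 16 alternative settings, without A (-1.11) and without E (-0.89) among them. At 3.0 mm the order was reversed, with 8.69 on A and 9.07 on B against 4.22 on E and 5.07 on F. Elongation factor TEF1 and initiation factors eIF-2-beta, Eif4B and eIF-4E had differences of 0.13 to 0.36. Of 3 tested probe sets of the plasma membrane proton pump H+-ATPase/ha1, 0 were called, beside 12.0% of all tested. Their differences were -0.26 to -0.66.

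Other named genes were measured outside these groups. PEAMT1, a phosphoethanolamine methyltransferase of choline synthesis, stood at 10.16 on A, 10.55 on B, 11.56 on E and 11.68 on F (-1.26, SE 0.31, adjusted p = 0.0142). The cold and control levels were more than 1 unit apart, and the call was lost without A, B or E (-1.29 to -1.13). COMT1, another methyltransferase gene, had -0.84 (adjusted p = 0.0531), and both probe sets of SAHH had -0.23 and -0.20. Prx1 was lower on 3 of 3 tested probe sets, by 2.34 on Ta.6572.1.S1_a_at (adjusted p = 0.0041), where A stood at 6.87, B at 7.85, E at 10.11 and F at 9.29. The others had differences of -1.68 and -1.49. Without E, the first 2 of these calls were lost (-1.66 and -1.45), and without A the last (-1.24). At 3.0 mm the Prx1 differences were positive, from 0.43 to 0.88, with none called. GSTZ1, a glutathione transferase of the zeta class, was called on TaAffx.56524.1.S1_at (-1.03, adjusted p = 0.0222, lost in 6 of 15 alternative settings, without A, B or F among them, at -1.10, -0.96 and -0.74) and not on Ta.237.1.S1_a_at (-0.71, adjusted p = 0.289). LTP3, a lipid transfer protein gene, had a difference of -1.995 (adjusted p = 0.0615).

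Of 26 probe sets that the study lists as related to auxin, 16 were tested, with a median difference of -0.13. The study chose this list on these arrays, so its counts are not independent evidence. Of the 16, 1 was called higher and 1 lower, beside 4.53% and 7.47% of all tested probe sets. The one higher was annotated as IAA15, one of the proteins that repress auxin response until auxin triggers their breakdown. Its probe set stood at 8.87 on A, 8.999 on B, 7.45 on E and 7.71 on F (1.35, SE 0.24, adjusted p = 0.00308), with separate groups and a call in 16 of 16 alternative settings. At 3.0 mm the difference was -3.49 (adjusted p = 2.64e-07), with the control arrays at 12.02 and 11.48. ARF17, an auxin response factor, had 9.43 on both cold arrays, 8.32 on E and 8.99 on F (0.78, adjusted p = 0.0183), under 2-fold. The other was 1 of 3 tested probe sets annotated as auxin-induced protein 5NG4, called lower (-2.61, adjusted p = 0.0417), but its levels of 2.298 on A, 2.52 on B, 3.18 on E and 6.85 on F rest on the 14 h control, and the call was lost in 10 of 15 alternative settings.

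Probe sets with a locus number and no name made up 57 of the 79 called probe sets with a gene symbol, and the examples given were picked after their values had been seen. LOC543390 (Ta.92.1.S1_s_at) stood at 5.43 on A, 6.81 on B, 9.63 on E and 11.45 on F (-4.42, SE 0.55, adjusted p = 0.000339). It was at 5.36 to 5.80 on all 2.0 mm arrays and at 12.35 and 12.55 in the control at 2.5 mm. LOC100037560 (Ta.3976.1.S1_at) fell by 4.17 and LOC100037539 by 3.75 and 3.72 on both of its probe sets. The probe sets of LOC100037539 share the first part of their name with that of LTP3. Among the increases, LOC542836 (Ta.204.1.S1_at) stood at 12.53 on A, 12.12 on B, 10.12 on E and 9.17 on F (2.68, SE 0.66, adjusted p = 0.0146), and lost its call without any single 2.2 mm array (2.51 to 2.85). LOC542796 (Ta.14281.1.S1_at) had a smaller and more precise difference of 2.04 (SE 0.30, adjusted p = 0.000916).

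All probe sets called at 2.2 mm were followed in the same way. On average, the 626 increases had levels of 9.01 on A and 8.82 on B at 2.2 mm, and 7.34 on E and 7.45 on F. At 2.0 mm all 4 conditions had been at 8.22 to 8.79. The cold arrays thus stood near the earlier level, and the control arrays below it. The 1031 decreases averaged 6.62 on A and 6.86 on B at 2.2 mm, and 9.19 on E and 9.26 on F, where the 2.0 mm arrays had been at 6.82 on A, 7.02 on B, 7.05 on E and 7.80 on F. For the decreases, too, the control arrays stood further from the 2.0 mm levels than the cold arrays did.

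**Figure D5:**
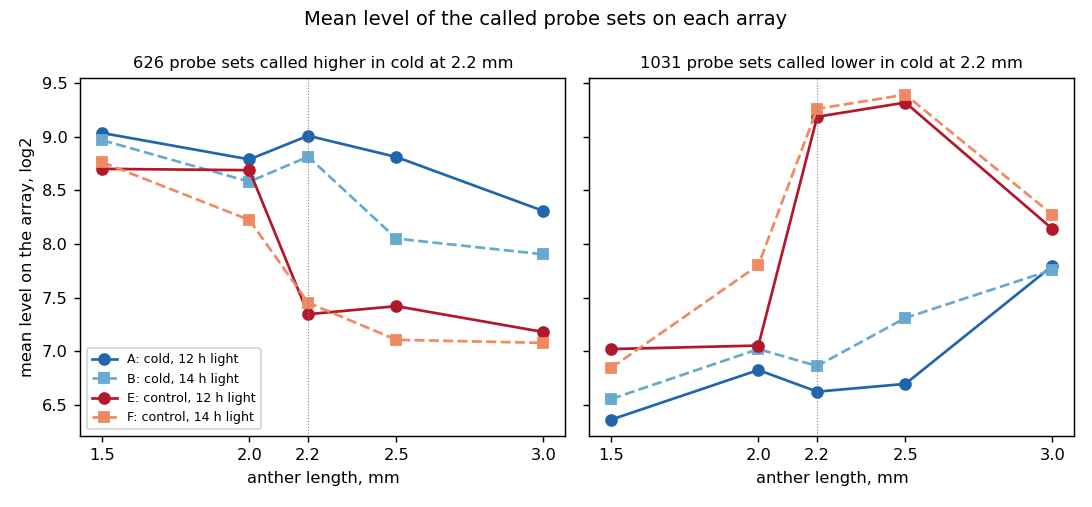
Mean level (log2) of the 626 probe sets called higher (left) and the 1031 called lower (right) at 2.2 mm, on each of the 20 arrays, against anther length (mm), cold in blue and control in red. From 2.0 to 2.2 mm the control lines fall on the left and rise on the right, to 7.34 and 9.19 on E, while the cold lines stay near 9.01 and 6.62 on A.

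The step between the lengths was tested directly. From 2.0 to 2.2 mm, 667 probe sets changed in the control (4.83%), 484 upward (3.51%) and 183 downward (1.33%). In the cold, limma called 0, with 194 at an unadjusted p under 0.05, beside 3446 in the control. The 194 are a smaller share of those tested than the 0.05 that no change at all would give. The error was pooled over all arrays of the series, among them less similar pairs. E and F of 2.0 mm correlated at 0.95, but A and B at 0.98 at 2.0 mm and 0.97 at 2.2 mm. The test can thus be too strict for the cold arrays, and the 0 does not show that nothing changed in the cold. Without the 12 h control array of 2.0 mm, the control count was 159, and without that of 2.2 mm it was 350. Cold anthers of 2.2 mm differed from control anthers of 2.0 mm in 6 probe sets (0.0435%), and from control anthers of 1.5 mm in 12 (0.0869%). At unadjusted p under 0.05 there were 875 and 999. These comparisons share arrays with each other and with the comparison at 2.2 mm.

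At 2.5 mm, 293 of the 626 increases (46.8%) and 761 of the 1031 decreases (73.8%) were called in the same direction, against 5.84% and 10.6% of all tested probe sets. They made up 36.4% of the increases and 51.9% of the decreases at that length. 1 decrease and 0 increases were called in the opposite direction. At 3.0 mm, 253 increases (40.4%) and 370 decreases (35.9%) were called in the same direction, beside 13.9% and 13.3% of all tested. A further 201 of the 1031 decreases were called higher in the cold at 3.0 mm, and 25 of the 626 increases were called lower. The median difference of the 1031 decreases was -0.30 at 2.0 mm, -1.78 at 2.5 mm and -0.49 at 3.0 mm, and that of the 626 increases 0.20, 1.04 and 0.80.

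Whether the cold effect itself differed between lengths was tested as a difference of differences. It was more negative at 2.2 mm than at 2.0 mm for 152 probe sets (1.1%) and more positive for 24 (0.174%), 176 in all (1.27%), of which 169 were also called at 2.2 mm. The 2.0 mm controls differed from each other, and E correlated with F at 0.95 there, against 0.98 between the cold arrays. Without 1 of the cold arrays of 2.2 or 2.0 mm, or E of 2.0 mm, the count of 176 became 52 to 83. Between 2.2 and 2.5 mm, limma called 0 probe sets for the difference, with 1637 at an unadjusted p under 0.05. Among the 176, the smallest error of the 5 most negative belonged to Ta.3347.1.A1_at, an unnamed probe set picked after its values were seen. It stood at 2.81 on all arrays of 1.5 and 2.0 mm and on all cold arrays of 2.2 and 2.5 mm, and at 9.37 on E and 10.44 on F at 2.2 mm. Its cold effect differed by -7.09 (SE 0.43, adjusted p = 5.68e-06). The equal values on many arrays can understate this error.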

How the data were processed

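The deposited table gives a log2 value for each probe set and array, which the authors' notes link to MAS5. Neither its version nor how arrays were scaled is given in the sources used here. Of 28895 entries, the reporter control was left out. Probe sets were tested where both arrays of some temperature and length exceeded their own 60th percentile (13805 of 28894). A probe set dim in 1 group can thus be kept through the other. A linear model was fitted to all 20 arrays in limma (version 3.58.1, R 4.3.3), with a mean for each temperature and length, a photoperiod term common to all lengths, a variance trend and Benjamini-Hochberg adjustment (9 residual degrees of freedom). The procedure was tested on simulated data. Calls needed an adjusted p under 0.05 and a 2-fold difference. The number of arrays limits the precision.

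Replicate numbers follow day length. Differences between 12 h and 14 h correlated between cold and control at -0.04 to 0.19 over the 5 lengths, so the pairing rests on the labels. Names came from the array's gene table (845 probe sets with a symbol, 115 with a name) and, for auxin, from the study's annotation. Named genes are members of word-defined lists, other probe sets with a name in the gene table, and the 5 largest called changes in each direction. Up to 10 of the largest called changes in each direction with a name beyond a locus number were also taken. Among the increases, 3 had such a name in the gene table. Members and lists were chosen with earlier results of these data known. No sequence is printed. Alternatives covered scaling, filters, thresholds, model terms and left-out arrays.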

Additional observations from a re-analysis of the deposited data

Results flagged for a closer look

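Between 2.0 and 2.2 mm the cold effect was tested as a difference of differences, and 176 probe sets passed. Apart from Ta.3347.1.A1_at, described above, 4 of the probe sets given in the report did so. The difference of effects was -8.08 for Ta.3542.1.S1_at (limma, adjusted p = 0.0426), -4.41 for LOC543390 (Ta.92.1.S1_s_at, adjusted p = 0.0177), and -3.31 and -3.45 for both probe sets of LOC100037539, Ta.1282.2.S1_at (adjusted p = 0.0299) and Ta.1282.2.S1_x_at (adjusted p = 0.0336). In each of the 4, the cold effect was more negative at 2.2 mm. No raftin, photosynthesis, histone or tubulin probe set passed this test, so a change of the cold effect between these lengths was not shown for them. Groups of 2 arrays are too small to be searched for outlying samples.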

How the results depend on the processing

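The comparison at 2.2 mm called 1657 probe sets, 626 higher and 1031 lower. It called 1012 (328 and 684) with the 80th percentile filter, and 921 (266 and 655) with no replicate block and the 4 arrays of 2.2 mm alone. With the replicate block, those 4 arrays gave 1228, of which 385 were higher. Without the photoperiod term, 1426 were called, and photoperiod terms for each length gave 1521. An unadjusted p under 0.05 with at least 2-fold in the same direction in both A vs. E and B vs. F, a reading of the study's thresholds, called 1260, with 399 higher. With an adjusted p under 0.05 and no fold minimum there were 2901 (1461 higher), and with an adjusted p under 0.01 and 2-fold 902 (256 higher and 646 lower). Quantile normalization called 1703 and a common median 1656, and the share of increases stayed at 36.3 to 37.9%. The median difference of all tested probe sets was 0.11, and 0.08 with a common median.

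Leaving out 1 array at a time, the total was 884 to 2136, the increases 225 to 1054 and the decreases 643 to 1082. The total was 884 without E, 2136 without F, 992 without A and 977 without B. Increases made up 24.5% without B, 25.5% without E and 49.3% without F. A lone array is assumed to vary like the other groups.

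The difference between 2.2 and 2.0 mm called 176 probe sets, 89 with tied probe sets left out, 116 with no replicate block and 109 with photoperiod terms for each length. Without 1 array, it called 52 to 239, and the step in the control called 159 to 739, where the main counts were 176 and 667. For the difference, the count was 83 without A and 58 without B of 2.2 mm, 52, 59 and 65 without A, B and E of 2.0 mm. Leaving out the 2.0 mm arrays, and all alternatives for the steps, were chosen after seeing the data. The step in the cold called 0 in every setting, which likewise does not show that nothing changed in the cold. No named probe set that was called changed direction. Of the calls among named probe sets, 25 were lost without E, 23 without A, 20 without B and 11 without F.

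The cause of these changes was not tested. Fewer probe sets were tested with the stricter filter, and fewer arrays were fitted when some were left out.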
